A study of Mus musculus with 7 samples.

Results

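Nuclear genes for the subunits of the oxidative phosphorylation system were followed in B-cell precursor (BCP) cells of Eμ-Ret mice, in bulk RNA-seq of 3 leukemic and 4 preleukemic samples. The genes were taken by name: symbols that begin with Nduf and a, b, c, s or v and a digit, with Uqcr, with Cox4 through Cox8 or with Atp5, pseudogenes left out. This gave 80 of the 24341 genes in the expression table, 35 of complex I, 8 of complex III, 20 of complex IV, 15 of complex V and 2 (Atp5s and Atp5sl) that share the name but are not subunits. Ndufa4 and its paralog Ndufa4l2 were counted with complex IV. Ndufab1, Cyc1, Usmg5 and the genes of complex II fall outside these names. In the Eμ-Ret model a Ret fusion oncogene is driven by the immunoglobulin heavy chain enhancer, which is active in the B lineage. The leukemic samples came from older moribund mice with overt disease and the preleukemic samples from young healthy mice, with no age in weeks or months given in the sources used here. All 7 mice carried the transgene as hemizygotes on a BALB/c background, and no mouse without the transgene was among them. BCP cells were sorted from spleen by flow cytometry on BP-1. The paper describes sorting on a phenotype with high BP-1 for preleukemic cells. In its culture work leukemic spleen cells were mostly used without enrichment. Its RNA-seq methods do not say whether the leukemic samples were sorted, so purity may differ between the groups. Disease and age differ together between the groups, so their effects on a value cannot be told apart.

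Oxidative phosphorylation takes place on the inner mitochondrial membrane. Complex I (NADH dehydrogenase) passes electrons from NADH to ubiquinone, complex III passes them on to cytochrome c, and complex IV (cytochrome c oxidase) hands them to oxygen. All of these pump protons, and complex V (ATP synthase) lets the protons flow back through a ring of c subunits to make ATP. Most subunits are encoded in the nucleus, are small proteins made from short and abundant mRNAs, and are built together with a few core subunits encoded by mitochondrial DNA. The mitochondrially encoded genes were not analysed here.

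Levels are given as FPKM, fragments counted per kilobase of transcript and scaled to sequencing depth, as deposited. Only genes with a summed FPKM of 10 or more across all samples were tested, 10541 genes in all and 74 of the 80 members. Fold changes are on the log2(FPKM + 1) scale, and a gene was called where limma's p, adjusted over all 10541 genes by the method of Benjamini and Hochberg, was under 0.05. The steps between low FPKM values imply 15.3 to 15.95 M fragments (M, 1e6) in the leukemic samples and 13.4 to 14.7 M in the preleukemic ones, at which 100 FPKM over 400 bases is about 536 fragments with a counting error of 4.32%. The FPKM total was also larger in the leukemic samples (507355 to 539887) than in the preleukemic ones (448022 to 471447). Markers of other cells differed between the groups: 12 of 12 red cell precursor genes tested rose, with a summed FPKM of 5339 to 24510 in the leukemic samples and 403 to 2583 in the preleukemic ones. Macrophage genes rose in 6 of 9 (155 to 328 against 35.3 to 85.6 FPKM) and neutrophil genes in 3 of 8 (1407 to 1744 against 148 to 860 FPKM). T and NK cell genes were called in 0 of 6 (2 at an unadjusted limma p under 0.05), at 11.3 to 60.2 against 6.90 to 13.9 FPKM. No marker of these lists found in the table was at the floor of 0.01 FPKM in any sample. Of the 12 B-cell precursor markers 4 fell and 0 rose, with a sum of 3156 to 4574 against 6114 to 7592 FPKM, and Enpep, which encodes BP-1, was listed at 19.1 to 102 FPKM in the leukemic and 134 to 210 FPKM in the preleukemic samples. In bulk RNA fewer cells of a type and less RNA per cell cannot be told apart, and the part of these cells in the results that follow was not tested.

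Of the 74 oxidative phosphorylation genes tested, 10 rose in leukemic BCP cells and 0 fell. That is 13.5% of them, beside 8.47% of all genes tested that rose and 6.26% that fell. By limma, 22 of the 74 had an unadjusted p under 0.05 and each of these was higher in leukemia. The genes that rose were Ndufv3, Ndufv2, Ndufb9, Ndufb10, Ndufa11 and Ndufa7 of complex I, Uqcr11 of complex III, Cox6b2 of complex IV, and Atp5g2 and Atp5g1 of complex V. In 20 of the 74 (27.0%) every leukemic sample was above every preleukemic one, beside 14.9% of all genes, and in 0 of them was the order the opposite, beside 17.1% of all genes. Log2 fold changes were mostly small and above 0: 64 of 74 (86.5%) lay above 0, beside 47.9% of all genes and 59.3% of the 1888 genes with a mean of at least 50 FPKM. Their median was 0.19, beside -0.018 for all genes and 0.074 for those abundant genes, of which 12.6% rose. Of the 1888 abundant genes 20.8% were higher in leukemia without overlap, nearer to the 27.0% of the set, and 236 were lower without overlap. The count of calls depended on single samples: it was 5 without leukemic replicate 1, 7 without leukemic replicate 2 (6 higher, and Ndufb2 lower), 20 without leukemic replicate 3, and 6, 3, 2 and 0 without preleukemic replicates 1, 2, 3 and 4 (20 at an unadjusted limma p under 0.05 in the last case). Calls over all genes moved as well, from 1553 to 1366, 1620 and 1402 without leukemic replicates 1, 2 and 3. Without preleukemic replicates 1 to 4 they fell to 932, 443, 271 and 149. Of all genes 893 rose with every sample and 711 without leukemic replicate 3, where the members called went up. The excess above 0 also depended on the scale between samples, since with every sample rescaled to the same total (TPM) 41 of 74 lay above 0, beside 31.3% of all genes, and with quantile normalization 52 of 74 did, beside 43.0% of all genes.

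**Figure D1:**
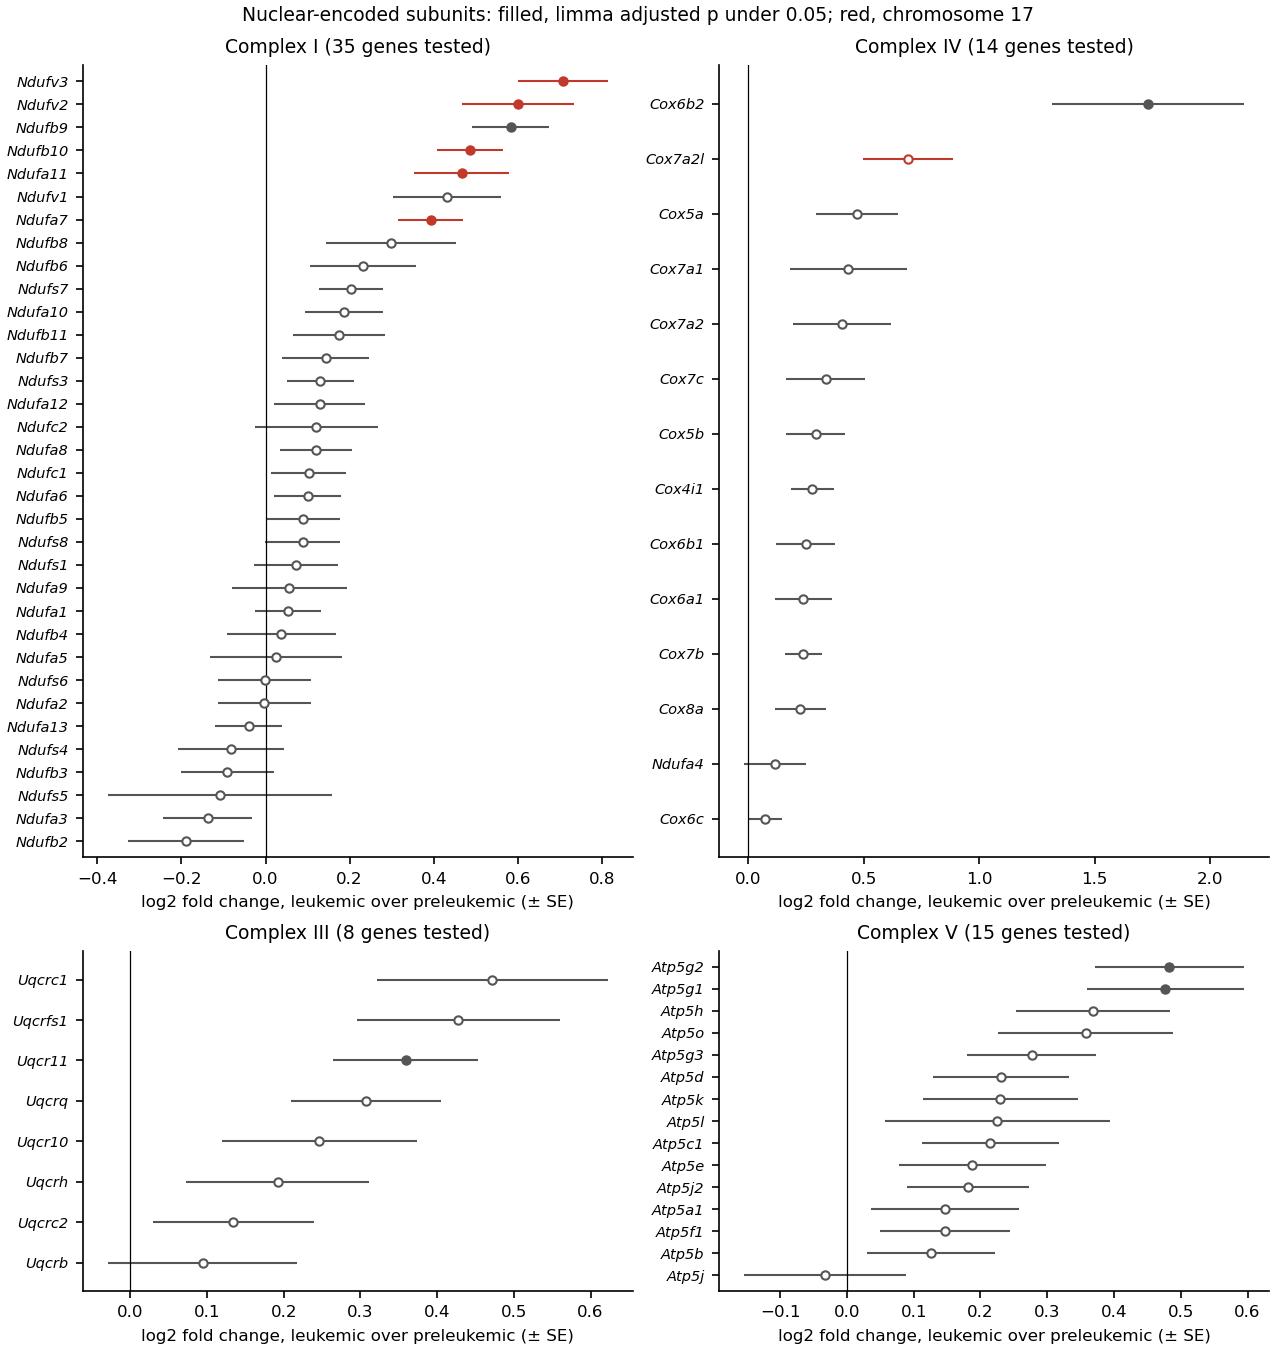
Log2 fold change of the tested subunit genes (1 gene of complex I is not drawn) with its standard error (x axis, log2(FPKM + 1) scale, leukemic over preleukemic; the scale differs between panels) for complexes I, IV, III and V; filled circles passed limma's adjusted p of 0.05 and red marks chromosome 17. Complex I spreads from -0.19 to 0.71 with its chromosome 17 genes near the top, while all tested genes of complexes III and IV lie above 0 on this scale.

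The complexes differed in their medians. The median log2 fold change was 0.12 in complex I, 0.28 in complex III, 0.28 in complex IV and 0.23 in complex V. All 8 tested genes of complex III, all 14 of complex IV and 14 of 15 of complex V lay above 0, against 27 of 35 of complex I. Under TPM scaling these medians were -0.044, 0.11, 0.12 and 0.064, so that of complex I changed sign there. Genes called were 6 of 35 in complex I (17.1%), 1 of 8 in complex III (12.5%), 1 of 14 in complex IV (7.14%) and 2 of 15 in complex V (13.3%), beside 8.47% of all genes and 12.6% of abundant genes that rose. The shares in complexes III, IV and V are near this background, and the difference between complexes was not tested.

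Complex I held the genes with the lowest p of the whole set. Ndufv3, an accessory subunit of the NADH-binding module, was at 133, 126 and 115 FPKM in leukemic samples 1 to 3 and at 79.5, 65.0, 84.6 and 75.9 FPKM in preleukemic samples 1 to 4. The lowest leukemic sample was well above the highest preleukemic one. Its mean of 125 ± 9.30 FPKM (SD, n = 3) was 1.64 times the preleukemic mean of 76.3 ± 8.28 (n = 4), a log2 fold change of 0.71 ± 0.11 (SE, limma adjusted p = 0.0129). Ndufv2, a core subunit that carries an iron-sulfur cluster, was at 133, 117 and 94.6 FPKM against 78.4, 65.5, 81.6 and 74.6 FPKM. The groups did not overlap, leukemic sample 3 was the lowest of its group, and the change was 0.60 ± 0.13 (limma adjusted p = 0.0278). Of these 2 calls, that on Ndufv3 was lost only without preleukemic replicate 4, while that on Ndufv2 was kept only without leukemic replicate 3.

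Ndufb10, an accessory subunit of the membrane arm, was at 173, 171 and 157 FPKM against 114, 126, 125 and 111 FPKM, with no overlap and little spread within either group (0.49 ± 0.079, limma adjusted p = 0.0149, lost only without preleukemic replicate 4). Ndufa7, an accessory subunit of the matrix arm, was at 181, 199 and 168 FPKM against 134, 137, 142 and 141 FPKM. The groups did not overlap, the preleukemic SD was 3.52 FPKM, and the change of 0.39 ± 0.078 had an adjusted p of 0.0216 by limma, lost without any one of the 4 preleukemic samples. Ndufa11, a membrane arm subunit of lower abundance, was at 20.4, 20.8 and 17.5 FPKM against 13.0, 12.2, 14.6 and 15.8 FPKM (0.47 ± 0.11, limma adjusted p = 0.0363). It too did not overlap, but was called in 1 of the 7 fits that leave out a sample, the one without leukemic replicate 3. These genes, Ndufv3 and Ndufv2 are the 5 complex I genes of the set on chromosome 17, and all 5 rose.

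**Figure D2:**
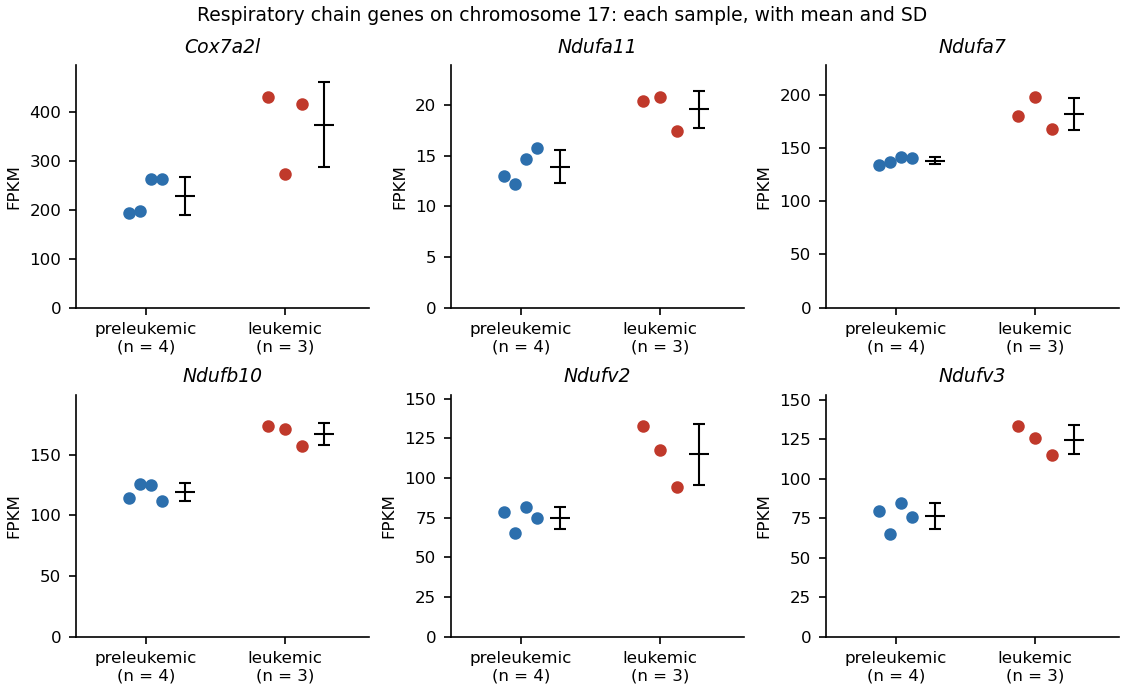
FPKM (y axis, from 0) of the 6 oxidative phosphorylation genes on chromosome 17 in each preleukemic (blue) and leukemic (red) sample, with the mean and SD of each group in black. In every panel the leukemic samples sit above the preleukemic ones; for Cox7a2l the gap is narrow, 274 against 263 FPKM.

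Ndufb9 was the one complex I gene off chromosome 17 that rose. It lies on chromosome 15, encodes a membrane arm subunit, and was at 208, 186 and 173 FPKM against 136, 115, 128 and 124 FPKM. The groups were far apart, with a mean of 189 ± 17.5 FPKM (n = 3) against 126 ± 8.80 (n = 4), a change of 0.58 ± 0.093 (limma adjusted p = 0.0138) that was lost without preleukemic replicate 3 or 4. Among the catalytic core subunits, Ndufv1, which binds NADH, was at 70.8, 69.1 and 62.4 FPKM against 57.3, 40.7, 47.9 and 54.5 FPKM, without overlap, but did not pass (0.43 ± 0.13, limma adjusted p = 0.0616). Ndufs7 also did not overlap, at 68.3 to 77.1 against 61.4 to 66.7 FPKM (0.20 ± 0.076, limma adjusted p = 0.109). The core subunits Ndufs1, Ndufs3 and Ndufs8 had log2 fold changes of 0.073, 0.13 and 0.088 and overlapped between the groups. The lowest values in complex I were those of Ndufb2 (72.6, 104 and 72.5 against 97.1, 87.7, 91.1 and 98.7 FPKM, -0.19 ± 0.14) and Ndufa3 (198, 201 and 154 against 198, 194, 201 and 212 FPKM, -0.14 ± 0.11), neither of which passed (limma adjusted p = 0.358 and 0.387). Over the 30 complex I genes not on chromosome 17 the median log2 fold change was 0.096, and 1 of them (3.33%) rose, beside 6.98% of all genes off that chromosome.

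Complex III is represented by the Rieske protein, the core proteins Uqcrc1 and Uqcrc2 and small accessory subunits. Uqcr11, one of the smallest of these, was at 178, 179 and 154 FPKM against 149, 130, 122 and 130 FPKM, without overlap (0.36 ± 0.095, limma adjusted p = 0.0455). It was the member called with the least margin, and was kept in 2 of the 7 fits that leave out a sample, those without leukemic replicate 3 and without preleukemic replicate 1, and under 2 of the 10 other settings. Uqcrfs1, the Rieske iron-sulfur protein, was at 128, 104 and 90.5 FPKM against 81.1, 68.9, 83.3 and 83.9 FPKM, and just missed the threshold (0.43 ± 0.13, limma adjusted p = 0.0700). Uqcrc1, a core protein encoded on chromosome 9, was at 253, 223 and 178 FPKM against 155, 130, 182 and 159 FPKM. Leukemic sample 3 lay within the preleukemic range there, and the change was 0.47 ± 0.15 (limma adjusted p = 0.0749). Uqcrh, the most abundant gene of the complex, was at 416 to 546 against 381 to 473 FPKM, with overlap, and Uqcrq had no overlap at 184 to 229 against 159 to 181 FPKM (limma adjusted p = 0.0754). Uqcr10, Uqcrc2 and Uqcrb had log2 fold changes of 0.25, 0.13 and 0.094.

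Complex IV has several subunits that exist as pairs or trios of paralogs, one used in most tissues and others known from muscle, lung or testis. In these BCP cells the common forms carried nearly all of the level: Cox4i1 at 455 to 679 FPKM, Cox6a1 at 276 to 412 FPKM and Cox8a at 346 to 518 FPKM over the 7 samples. Their paralogs Cox4i2, Cox6a2 and Cox8b never exceeded 1.20 FPKM, and Cox7b2 and Cox8c were listed at the floor of 0.01 FPKM in all samples. With Ndufa4l2 (highest value 0.169 FPKM) these are the 6 genes that did not pass the filter. Cox4i1, which encodes the largest nuclear-encoded subunit of the complex, was at 679, 584 and 583 FPKM against 502, 455, 531 and 541 FPKM. It did not overlap but did not pass (0.28 ± 0.093, limma adjusted p = 0.0855), and the same held for Cox7b on the X chromosome, at 111 to 132 against 99.8 to 107 FPKM (0.24 ± 0.080, the same adjusted p). Cox5a and Cox7a2, both on chromosome 9, reached 526 and 287 FPKM in leukemic sample 1 but 317 and 164 FPKM in leukemic sample 3, inside the preleukemic ranges of 262 to 344 and 139 to 201 FPKM. The lowest log2 fold changes of the complex were those of Cox6c (0.073, 412 to 452 against 373 to 418 FPKM) and Ndufa4 (0.12).

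Cox6b2, the form of subunit 6b known from testis, was the one complex IV gene that rose. Its values were low, 5.62, 14.04 and 7.54 FPKM against 4.02, 2.02, 1.69 and 0.630 FPKM. The groups did not overlap although leukemic sample 1 and preleukemic sample 1 were close, and the log2 fold change of 1.73 ± 0.42 was the largest of the set (limma adjusted p = 0.0359). With a mean fragment length of 200 bases assumed, the effective length is 235 bases. These levels then stand for about 20.2, 50.6 and 28.2 fragments against 13.9, 6.83, 5.49 and 1.99 fragments. Counting error alone would be about 71.0% in the lowest sample, a value that depends on that assumption. The call was kept in 2 of the 7 fits that leave out a sample, those without leukemic replicate 1 and without preleukemic replicate 1. Set against Cox6b1, its ubiquitous paralog, Cox6b2 made up 1.23%, 3.18% and 2.14% of the summed FPKM in leukemia and 1.11%, 0.692%, 0.446% and 0.183% before it. The share stayed small in all samples, with a mean of 2.19% ± 0.978 (n = 3) against 0.608% ± 0.394 (n = 4). The log2 fold change was 0.96 with a pseudocount of 5 and 2.21 with one of 0.1, and the call was lost with no filter on low values (limma adjusted p = 0.0565). Across the 7 samples Cox6b2 had the same order as the red cell precursor sum, which was 5339, 24510 and 12020 FPKM against 2583, 431, 414 and 403 FPKM. The macrophage sum had this order too except between preleukemic samples 3 and 4, at 155, 328 and 246 against 85.6, 67.8, 35.3 and 38.45 FPKM. The part of either cell type in the level of Cox6b2 was not tested.

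Cox7a2l, on chromosome 17, encodes a factor known for a role in joining complexes III and IV into supercomplexes. Whether its product has that role in these mice on a BALB/c background was not tested. The gene was at 432, 274 and 418 FPKM against 194, 197, 263 and 263 FPKM, with a mean of 374 ± 87.2 FPKM (n = 3) against 229 ± 38.9 (n = 4). Leukemic sample 2 was close to the upper preleukemic samples, and the change of 0.69 ± 0.20 was the nearest to the threshold among the genes of the set that did not pass (limma adjusted p = 0.0553). Within the trio of Cox7a1, Cox7a2 and Cox7a2l, Cox7a2l held 58.9%, 50.3% and 71.0% of the summed FPKM in leukemia and 49.6%, 57.3%, 55.8% and 59.6% before it. These shares overlap, and leukemic sample 3 stands out with the highest share of Cox7a2l and the lowest of Cox7a2 (28.0%). Cox7a1, the form known from heart and skeletal muscle, was at 5.60 to 14.3 FPKM and held 1.02% to 2.14%.

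In complex V the 2 genes called belong to the c ring, the rotor that protons turn. Its subunit c is encoded by Atp5g1, Atp5g2 and Atp5g3, which differ in the import peptide and yield the same mature protein. Atp5g2 was at 53.8, 45.5 and 48.8 FPKM against 41.0, 31.3, 35.3 and 32.9 FPKM (0.48 ± 0.11, limma adjusted p = 0.0316), and Atp5g1 at 59.5, 50.8 and 45.2 FPKM against 38.2, 37.7, 39.4 and 32.1 FPKM (0.48 ± 0.12, limma adjusted p = 0.0377). Neither overlapped between the groups. Atp5g2 was kept without leukemic replicate 2 or preleukemic replicate 1 and lost without any other sample, and Atp5g1 was kept only without leukemic replicate 3. Under TPM scaling neither passed (0.33 and 0.32 for Atp5g2 and Atp5g1, limma adjusted p = 0.0799 and 0.0936), and with the length trend removed Atp5g2 did not (limma adjusted p = 0.0505). Atp5g3, the main source of subunit c here, was at 526, 468 and 412 FPKM against 390, 362, 406 and 383 FPKM, again without overlap, but did not pass (0.28 ± 0.096, limma adjusted p = 0.0924). Atp5g3 made up 82.2% ± 0.766 (n = 3) of the trio in leukemia and 84.3% ± 0.980 (n = 4) before it, while Atp5g1 made up 9.08% ± 0.198 and 8.06% ± 0.659. For both of these shares the leukemic and preleukemic samples did not overlap, whereas those of Atp5g2 did (8.06% to 9.64% against 7.27% to 8.73%). A share within a sample does not depend on how samples are scaled to each other.

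**Figure D3:**
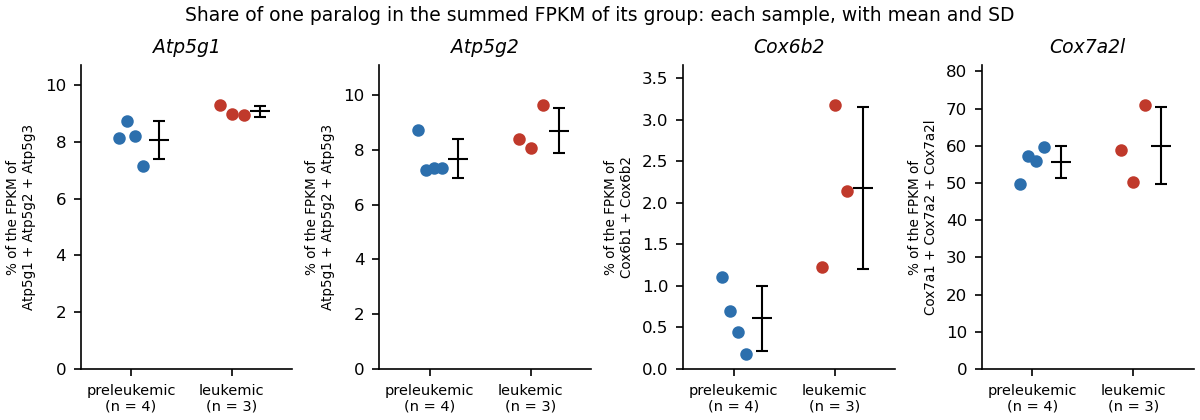
Share of Atp5g1, Atp5g2, Cox6b2 and Cox7a2l in the summed FPKM of their paralog groups (y axis, percent, from 0) in each preleukemic (blue) and leukemic (red) sample, with mean and SD in black. The groups overlap for Atp5g2 and Cox7a2l. They do not overlap for Atp5g1 and Cox6b2, but the gaps are narrow (8.94% against 8.75% and 1.23% against 1.11%).

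In the catalytic head of complex V no gene passed. Atp5b, the catalytic beta subunit and the most abundant gene of the set, was at 836, 842 and 668 FPKM against 741, 698, 723 and 690 FPKM, so that leukemic sample 3 was the lowest of all 7 (0.13 ± 0.096, limma adjusted p = 0.381). Atp5a1, the alpha subunit, was at 530, 443 and 394 FPKM against 423, 373, 419 and 421 FPKM (0.15 ± 0.11, limma adjusted p = 0.373). Of the 5 head (F1) genes 0 were called by limma, 0 had an unadjusted p under 0.05, and their median log2 fold change was 0.19, beside 0.48 for the 3 c ring genes. In the peripheral stalk, which holds the head still, Atp5h did not overlap (185 to 236 against 146 to 183 FPKM, 0.37 ± 0.11, limma adjusted p = 0.0703) while Atp5j lay at -0.033 ± 0.12. Atp5e was second in abundance in the complex at 527 to 689 against 491 to 579 FPKM, with overlap (limma adjusted p = 0.263). Atp5s and Atp5sl, the 2 genes that are not subunits, were at 2.75 to 4.17 FPKM and 20.2 to 25.8 FPKM over all samples, with log2 fold changes of 0.094 and -0.17 that did not pass.

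The leukemic samples were not alike. The median deviation of the 74 genes from their preleukemic means was 0.34, 0.26 and -0.015 (log2) in leukemic samples 1, 2 and 3 and 0.051, -0.12, 0.048 and 0.023 in preleukemic samples 1 to 4, beside medians over all genes between -0.023 and 0.010. Leukemic sample 1 was the highest of the 7 samples in 46 of 74 genes and leukemic sample 2 in 21, but leukemic sample 3 in 1. Leukemic sample 3 was the lowest of its group in 64 of 74 genes, and preleukemic sample 2 the lowest of all samples in 40. In leukemic sample 3 the median was -0.048 for complex I, 0.0495 for complex III, 0.044 for complex IV and 0.012 for complex V, so the level there was near that of the preleukemic samples in each complex. Without leukemic replicate 3 the number of calls rose to 20 and the median to 0.28, while calls over all genes went from 1553 to 1402. The red cell sum was 5339, 24510 and 12020 FPKM in leukemic samples 1, 2 and 3, the macrophage sum 155, 328 and 246 FPKM, the neutrophil sum 1521, 1407 and 1744 FPKM and the B-cell precursor sum 3156, 4574 and 3667 FPKM. Their part in the difference between the leukemic samples was not tested.

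Position in the genome, which the choice of genes did not use, went with the fold changes. Chromosomes 9, 12, 14, 15 and 17, which leukemias of this model can carry in extra copies, were set apart from the rest. In the paper's microarray data chromosome 17 was gained in all leukemias and 9 in most, but 12, 14 and 15 in fewer. Most preleukemic samples karyotyped there also held cells with gains among these chromosomes, so a preleukemic level is not that of a diploid cell by default. The copy number of these 7 samples was not analysed here. On chromosome 17, 5 of 6 genes of the set rose and all 6 were without overlap, beside 33.6% and 49.5% of the 592 genes tested on that chromosome. Their median log2 fold change was 0.54, beside 0.35 for all genes of the chromosome, and each of the 6 stayed above 0 under all 17 other settings tried. Its count of calls, like those of the whole set and of all genes, rested on single samples: it was 3 without leukemic replicate 1, 4 without leukemic replicate 2, 2 without preleukemic replicate 1, 2 or 3, and 0 by limma without preleukemic replicate 4, where 6 had an unadjusted p under 0.05 and the 6 genes had a median of 0.56. Without preleukemic replicate 4, calls over all genes fell from 1553 to 149. On chromosome 15, 2 of 4 genes rose and were without overlap (Ndufb9 and Atp5g2, with Cox6c and Ndufa6 at 0.073 and 0.10), beside 9.07% and 16.7% of 408 genes. On chromosome 9, 0 of 4 genes (Uqcrc1, Cox5a, Cox7a2 and Atp5l) were called by limma and 2 had an unadjusted p under 0.05, beside 13.1% of 596 genes that rose, none was without overlap, beside 27.2%, and their median was 0.44, beside 0.22. Chromosome 12 held Atp5s alone and chromosome 14 none. Among the 59 genes on the other chromosomes 3 rose (5.08%, Cox6b2, Atp5g1 and Uqcr11), beside 6.49% of the 8225 genes there, and 12 were without overlap (20.3%), beside 11.8%. Of these 59, 83.1% lay above 0, beside 43.4%, with a median of 0.16, beside -0.053.

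**Figure D4:**
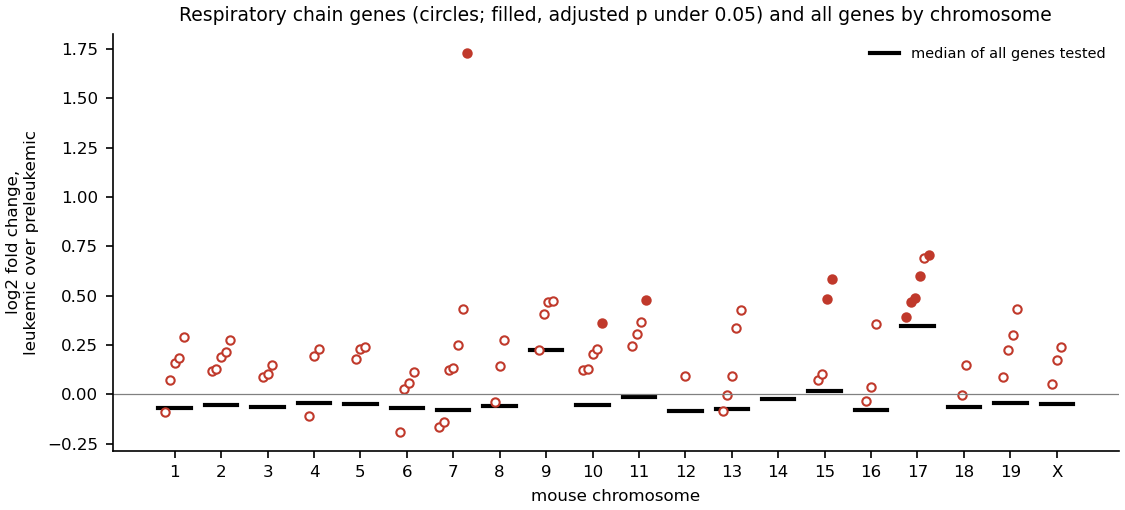
Log2 fold change (y axis, leukemic over preleukemic) of the 74 tested genes by mouse chromosome (x axis; circles, filled where limma's adjusted p was under 0.05), with the median of all genes tested on each chromosome as a black bar. The bars stand at 0.35 on chromosome 17 and 0.22 on chromosome 9 and near 0 elsewhere, and most circles lie above their bar.

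The samples differed by chromosome as well. The 6 genes on chromosome 17 stood at medians of 0.67, 0.54 and 0.37 above the preleukemic mean in leukemic samples 1 to 3, where all genes of that chromosome stood at 0.35, 0.33 and 0.38. All leukemic samples were thus raised there, sample 3 included. The 4 genes on chromosome 9 stood at 0.71, 0.54 and -0.012, where all genes of that chromosome stood at 0.32, 0.25 and 0.072, so leukemic sample 3 was near the preleukemic level on both counts. On chromosome 15 the 4 genes stood at 0.38, 0.24 and 0.33, and all genes at -0.054, -0.048 and 0.19. The 59 genes of the other chromosomes stood at 0.31, 0.21 and -0.030, and all genes there at -0.036, -0.059 and -0.055.

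**Figure D5:**
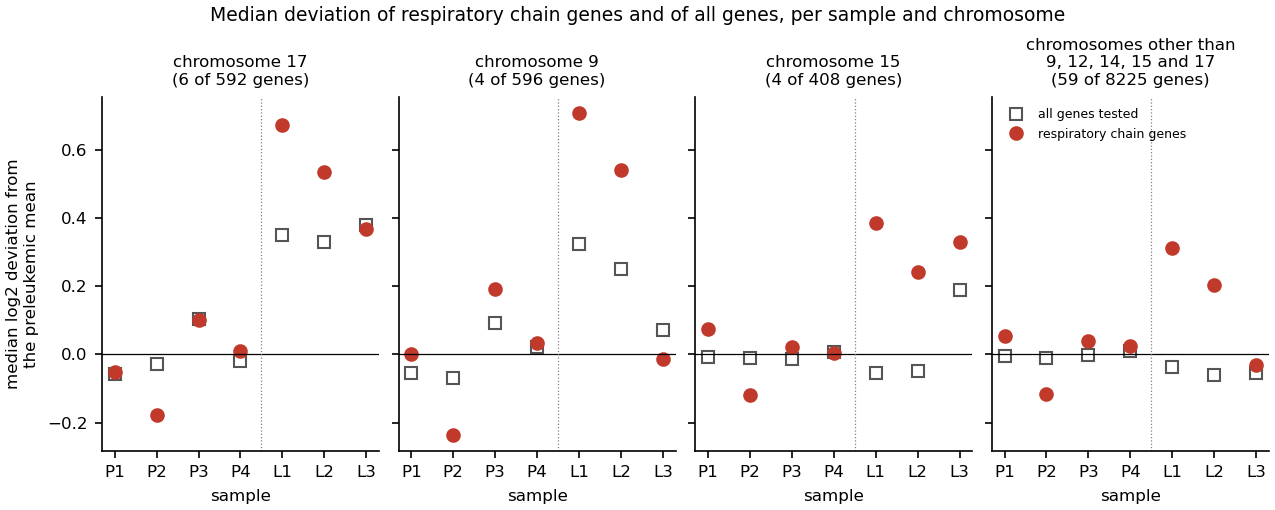
Median log2 deviation from the preleukemic mean (y axis) in preleukemic (P1 to P4) and leukemic (L1 to L3) samples, for oxidative phosphorylation genes (red circles) and all genes tested (open squares) on chromosomes 17, 9 and 15 and on the chromosomes outside 9, 12, 14, 15 and 17. On chromosome 17 both medians are raised in all 3 leukemic samples, while elsewhere the red circles are raised in L1 and L2, with L3 at -0.030 on the other chromosomes and at 0.33 on chromosome 15.

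Respiratory chain promoters are known for sites of NRF1 (nuclear respiratory factor 1), of the ETS factor GABP and of YY1. RefSeq promoters (GRCm38.p6, 250 bases before to 50 after the start) were found for 62 of the 72 subunit genes tested and were read on both strands. The NRF1 core GCATGCGC was in 9 of 62 (14.5%), beside 6.64% of the 8128 genes tested with a promoter, and its longer palindromic form, which has GC added before the core and so contains it on either strand, in 5 (8.06%), beside 2.61%. The YY1 letters AAGATGGC were in 10 (16.1%), beside 5.93%. The ETS core CCGGAAG was in 14 (22.6%), beside 22.3%, and its longer form CCGGAAGT in 5 (8.06%), beside 10.2%. Of the 9 genes with a promoter that rose, the NRF1 core was in 3 (Ndufa11, Atp5g2 and Uqcr11), the ETS core in 1 (Uqcr11) and the YY1 letters in 0. A match is a description of the letters and not a bound site. The 250 bases before the start of Ndufa11 (chr17:56717512-56717761, + strand) and of Atp5g2 (chr15:102671048-102671297, - strand) are shown as those of 2 genes that rose and hold the full NRF1 letters, in capitals and starting 60 and 42 bases before the gene start. Those of Ndufv3 (chr17:31519865-31520114, + strand) are shown as those of the chromosome 17 gene with the largest change, in which none of these letters was found.
Ndufa11: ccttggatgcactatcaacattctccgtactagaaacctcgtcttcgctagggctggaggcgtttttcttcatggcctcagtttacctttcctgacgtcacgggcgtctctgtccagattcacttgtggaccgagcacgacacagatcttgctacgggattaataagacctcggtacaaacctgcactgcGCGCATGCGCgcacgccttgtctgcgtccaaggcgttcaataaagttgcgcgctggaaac
Atp5g2: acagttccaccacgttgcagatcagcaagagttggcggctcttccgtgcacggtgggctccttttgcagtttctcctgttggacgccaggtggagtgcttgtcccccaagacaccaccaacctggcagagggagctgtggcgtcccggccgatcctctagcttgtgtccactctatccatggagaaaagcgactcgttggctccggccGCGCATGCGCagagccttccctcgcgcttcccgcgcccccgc
Ndufv3: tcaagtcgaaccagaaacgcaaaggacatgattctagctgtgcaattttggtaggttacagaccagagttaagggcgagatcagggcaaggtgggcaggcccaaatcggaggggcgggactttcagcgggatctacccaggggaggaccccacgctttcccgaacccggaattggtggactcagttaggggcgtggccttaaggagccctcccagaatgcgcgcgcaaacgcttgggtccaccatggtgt

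Genes around the respiratory complexes were read from lists of known function, and the counts called in each list are to be read beside the 8.47% of all genes that rose. In complex II, which feeds electrons from succinate, Sdha, Sdhb and Sdhc had log2 fold changes of 0.025, 0.10 and 0.043, and Sdhd, on chromosome 9, one of 0.53 ± 0.15 that did not pass (limma adjusted p = 0.0553). Sdhd was at 189, 178 and 136 FPKM against 110, 99.3, 137 and 117 FPKM, and as for Uqcrc1 leukemic sample 3 lay within the preleukemic range. Cyc1, the cytochrome c1 subunit of complex III on chromosome 15, rose (165, 148 and 155 against 126, 108, 125 and 111 FPKM, 0.41 ± 0.087, limma adjusted p = 0.0260), and Cycs, cytochrome c itself, did not pass (0.24 ± 0.12). Of the 14 complex I assembly factors tested, Ndufaf2 rose (0.45 ± 0.098, limma adjusted p = 0.0272) and Tmem126b fell (-0.45 ± 0.10, limma adjusted p = 0.0313), with a median of 0.11. Of 6 complex III assembly factors Uqcc2, on chromosome 17, rose from 63.8 to 79.6 FPKM before leukemia to 109 to 134 FPKM in it (0.78 ± 0.11, limma adjusted p = 0.0109).

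Of the 24 complex IV assembly factors 2 rose, Cmc2, a copper-pathway factor (1.33 ± 0.25, limma adjusted p = 0.0185), and Lrpprc, which stabilises mitochondrial mRNAs and lies on chromosome 17 (0.34 ± 0.089, limma adjusted p = 0.0465), and their median was -0.016. Of 24 this is a share near that of all genes, and the call on Lrpprc was lost under TPM scaling (0.18, limma adjusted p = 0.208), quantile normalization and no intensity trend, and without any one sample. Cmc2 was at 56.4, 34.9 and 77.9 FPKM against 18.2 to 23.7 FPKM, highest in leukemic sample 3. Of the 4 genes tested in the list of complex V assembly factors 0 were called by limma or had an unadjusted p under 0.05 (median -0.020). That list holds Usmg5, which encodes a small membrane subunit rather than an assembly factor (0.21 ± 0.11, limma adjusted p = 0.240). Of 18 tricarboxylic acid cycle genes Suclg2 alone was called (0.38 ± 0.10, limma adjusted p = 0.0496) and the median was 0.10. That call was lost under 7 of the 10 other settings, among them TPM scaling (0.23, limma adjusted p = 0.177), and without any one sample. Of the 16 nuclear regulators 0 were called by limma and 2 had an unadjusted p under 0.05, with a median of -0.12. These 2, Gabpb1 (-0.46 ± 0.13, limma adjusted p = 0.0512) and Mterf3 (-0.24 ± 0.081, limma adjusted p = 0.0835), were lower in leukemia without overlap. Nrf1, Gabpa and Tfam were at 0.013, -0.22 and -0.16. Ppargc1a, a coactivator of respiratory genes, was at -0.60 ± 0.42 (limma adjusted p = 0.337), with 0.960 to 6.94 against 4.66 to 5.88 FPKM. Among 7 carriers and inhibitors tested, Atpif1, the inhibitor that stops complex V from running in reverse, rose from 34.1 to 51.7 FPKM to 66.5 to 112 FPKM (1.06 ± 0.20, limma adjusted p = 0.0191), and Slc25a5, the ADP/ATP carrier of proliferating cells, was called at 0.27 ± 0.074 (limma adjusted p = 0.0480). The call on Slc25a5 was lost under 8 of the 10 other settings, with a log2 fold change of 0.11 under TPM scaling and 0.0425 under quantile normalization (limma adjusted p = 0.290 and 0.701), and without any one sample but leukemic replicate 3. Atpif1 was highest in leukemic sample 2 and lowest of its group in leukemic sample 1. The red cell, macrophage, T and NK cell and B-cell precursor sums all had this order. The neutrophil sum and the subunit genes did not. Among the preleukemic samples Atpif1 and the red cell and macrophage sums were highest in sample 1. Atpif1 was lowest in sample 2, the red cell sum in sample 4 and the macrophage sum in sample 3. The part of any of these cells in Atpif1 was not tested.

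Transcript length and sequence copies limit these values. The tested genes have short transcripts, with a median of 645 bases beside 2064 for all genes tested, and with the trend on transcript length removed from each sample, a setting chosen after seeing the data, 7 were called and the median was 0.12. RefSeq names pseudogenes of Atp5c1, Atp5k, Atp5l, Cox5b, Cox7c, Ndufa12, Ndufs5 and Uqcrh, none of which was called, and fragments shared with such copies could be counted for either. Atp5d and Ndufs7 are neighbors merged into 1 locus in the table, so their positions were taken from RefSeq.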

How the data were processed

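RNA-seq of BCP cells from 3 leukemic and 4 preleukemic Eμ-Ret mice was analysed from the deposited table of FPKM values, 1 per gene and sample, which the authors made from stranded mRNA libraries. The submitters' processing notes name STAR 2.5.0b, Cufflinks 2.2.1, bedtools 2.17.0, Bowtie and DESeq2 and the mm10 build. The annotation and the treatment of fragments that map to several genes or strands are not given in the sources used here. FPKM is not a count, so no count model was fitted. Each sample was mapped to its group by its labels.

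Genes whose FPKM added up to 10 or more were compared as log2(FPKM + 1) values by limma 3.58.1 (lmFit, eBayes with an intensity trend, no covariates) in R 4.3.3, adjusted by the method of Benjamini and Hochberg over 10541 genes at 0.05. The threshold is that of the study's methods; its minimum of 10, which the study set on summed counts, was set here on summed FPKM, a different cut. Depth was read from whole steps in the low values of 2243 genes with 1 transcript over 1500 bases in GENCODE M21. A mean fragment length of 200 bases was assumed and taken off each transcript length. At the depths found, 76.8% to 82.1% of these low values came out within 0.1 of a whole fragment. No count test was run on them, and counting errors quoted cover counting alone. Motifs and chromosomes were read from RefSeq (GRCm38.p6), in which 80 of 80 symbols were found, each on the chromosome of the table. Medians, shares of paralogs, motif counts and chromosome counts are descriptions with no test. Figures were drawn with matplotlib 3.10.9.

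Members and gene lists were chosen with earlier results of these data known. Named were, per complex, the 2 most abundant members and the 2 with the highest and the 2 with the lowest log2 fold change, the paralog groups, the catalytic core and members counted among 5 or fewer, and in each list at most 3 called genes with the largest change. Others, such as Atp5h, Uqcrq, Cox5a, Enpep and the regulators, were named after their values were seen. The gene of complex I that is not drawn is counted in all totals and is not reported by itself here. Alternatives were another pseudocount, filter, scaling, variance prior, length correction, a replicate block and leaving out each sample.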

Additional observations from a re-analysis of the deposited data

Results flagged for a closer look

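Among 62 groups of preleukemic values that were checked, over named genes and summed lists, 7 had 1 sample far from the other 3. The rule flags about 1 in 20 groups of independent, normally spread values. These groups share the same samples, so the count cannot be set against that rate. Preleukemic sample 2 was low in Atp5a1 (373 FPKM against 419 to 423) and in Cox6c (373 FPKM against 414 to 418), and high in the summed regulators of respiratory genes (473 FPKM against 379 to 394). Preleukemic sample 1 was low in Cox7a1 (5.60 FPKM against 7.37 to 7.61) and high in the red cell precursor sum (2580 FPKM against 403 to 431). Near the floor, preleukemic sample 4 was high in Cox4i2 (0.14 FPKM) and preleukemic sample 2 in Cox8b (0.833 FPKM), where the other 3 were at 0.01 FPKM. With those 3 tied, any higher value would have been flagged.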

How the results depend on the processing

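Of 1148 values (68 named genes under up to 17 other settings), 910 kept their direction and side of the threshold or, where never called, moved by less than the spread between samples. Of the rest 196 lost a call, 10 gained one and 32 uncalled values moved by more. Values changed sign in 38 cases, each of a gene not called in the reported fit or under that setting, and in 0 cases of a called gene. Against 10 members called, a median of 0.19 and 1553 genes called, TPM scaling gave a median of 0.025 and 2917 genes (686 higher and 2231 lower, against 893 and 660), with 7 members called, of which Atp5sl was lower. TPM scaling ended the calls on Atp5g1, Atp5g2, Ndufa11, Uqcr11, Cyc1, Ndufaf2, Lrpprc, Suclg2 and Slc25a5. Under it the median of all genes shifted to -0.18, and the members' median lay 0.20 above that. Quantile normalization gave a median of 0.0545 (754 higher and 907 lower among all genes), 0.11 above that of all genes. A filter at an FPKM sum of 70 gave 951 genes, with fewer genes tested, and 8 members. With the replicate number as a block 0 members and 0 of all genes were called by limma (15 and 2429 at an unadjusted p under 0.05). Same-numbered samples come from different mice, and their deviations correlated at 0.029, 0.050 and -0.092, so the numbers do not pair them. Leaving out 1 sample gave 0 to 20 members, a median of 0.14 to 0.28 and 149 to 1620 genes called. Without preleukemic replicate 4, 0 members were called and 20 had an unadjusted p under 0.05. The other settings gave 7 to 10 members. The causes were not tested. The planned length correction with RefSeq lengths was not run, since the table used gives gene spans, and GENCODE lengths were used. At this depth the low genes, such as Cox6b2 and Cox7a1, are limited by counting, and with 3 leukemic samples the spread between them limits the rest.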
